A study of Mus musculus with 12 samples.

Results

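Transcripts of 10 genes of DNA replication were described in structures dissected from the embryonic mouse kidney. The genes were the minichromosome maintenance genes Mcm2, Mcm3, Mcm4, Mcm5, Mcm6 and Mcm7, the sliding clamp gene Pcna, the ribonucleotide reductase genes Rrm1 and Rrm2, and the cyclin gene Ccne1. A gene was included where at least 1 probe set of the array was annotated to its symbol alone, which gave 13 probe sets for these 10 genes, of 8251 genes on the array named in this way. The rule that selects them uses symbols and no measured values; the list itself was drawn up with earlier results of these data known.

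RNA came from kidneys of wild-type Swiss Webster embryos at E14.5, Theiler stage 22, with sex recorded as unknown. There were 4 groups of 3 arrays: renal vesicles in pools of 20 structures (replicates 2, 3 and 4), S-shaped bodies in pools of 20 (replicates 1, 2 and 3), collecting duct, 1 per array and not pooled (replicates 1, 2 and 3), which is the reference of the study, and S-shaped bodies taken 1 per array (replicates 3, 4 and 5). The renal vesicle is the first epithelial stage of the nephron, the S-shaped body follows it and already holds the cells of the future glomerulus and tubule, and the collecting duct derives from the ureteric bud. All groups shared TRIzol extraction and 2 rounds of T7 amplification before hybridization to Affymetrix MG_U74Av2 arrays. Each replicate is a separate dissected sample, but whether replicates stem from different embryos is not in the labels, so a p-value covers the spread among these samples alone; 3 arrays a group limit the precision.

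Before a cell copies its DNA, a ring of the 6 MCM proteins is loaded at replication origins, and when S phase starts this ring becomes the helicase that opens the double strand. PCNA then encircles the DNA and holds the polymerases on it, ribonucleotide reductase makes the deoxynucleotides they use, and cyclin E with its kinase helps to start the process. Many of these genes are transcribed under the control of E2F factors as cells enter S phase, and the tips of the ureteric bud and the early nephron are known as dividing tissues of the fetal kidney.

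Because E2F factors are the textbook regulators of this set, the promoters were searched for the letters they are known to bind. RefSeq promoter windows on GRCm38.p6, running from 250 bases before to 50 bases after a transcript start, were at hand for 9 of the 10 genes; Mcm4 was not matched. The words TTTCCCGC, TTTGGCGC, TTTCGCGC and TTTGCCGC were sought on both strands, and overlapping matches were each counted. At least 1 of them was found in 4 of the 9 genes, Mcm3, Mcm5, Mcm6 and Mcm7, against 2.60% of 27025 genes in the table. The pentamer CCAAT, the letters of the box bound by the factor NF-Y, was found on either strand in 8 of the 9, all but Ccne1, against 41.1% of the 27025 genes. The stretches that hold E2F words are shown because 4 of the MCM genes share them; each reads 5′ to 3′ on the strand of its gene, and capitals mark the matched letters in either orientation.

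Mcm3 (chr1:20820266-20820294, minus strand): gGCGGGAAAacttgggaagtTTTGGCGCc
Mcm5 (chr8:75109330-75109393, plus strand): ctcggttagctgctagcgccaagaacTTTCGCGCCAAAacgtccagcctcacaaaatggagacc
Mcm6 (chr1:128359719-128359841, minus strand): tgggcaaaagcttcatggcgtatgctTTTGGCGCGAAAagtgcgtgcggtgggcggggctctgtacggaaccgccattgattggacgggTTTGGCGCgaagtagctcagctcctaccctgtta
Mcm7, upstream of the start (chr5:138172015-138172074, minus strand): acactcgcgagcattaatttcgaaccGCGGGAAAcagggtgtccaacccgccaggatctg
Mcm7, at the start (chr5:138171849-138171878, minus strand): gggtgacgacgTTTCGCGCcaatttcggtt

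In Mcm5 and Mcm6 a word on one strand overlapped a word on the other, so that the capitals run over 12 letters. A match describes letters in these windows; whether a factor binds there was not measured.

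Levels are given as log2(normalized intensity + 7.22), with arrays in the order of the replicate numbers above. An array's background was the distance by which its lowest 5% of deposited values lay below 0. Median deposited intensity ran from 3.48 in single S-shaped body replicate 3 to 61.9 in collecting duct replicate 1. It was 14.3 to 20.4 in renal vesicles, 37.2 to 42.5 in pooled S-shaped bodies and 47.6 to 61.9 in collecting duct. With 3.48 to 9.48 in single S-shaped bodies, the groups did not overlap. Deposited Mcm2 was 184 to 201 in renal vesicles and 282 to 355 in collecting duct, the reverse of its normalized order. Deposited Rrm2 overlapped, at 375 to 415 and 262 to 412. Differences between groups thus depend on the normalization. On an array, 48.3% to 59.7% of probe sets were above background. The dissection labels were checked with marker lists: the summed level of 15 ureteric bud and collecting duct genes was 9451 to 10610 in collecting duct and 363 to 1233 in renal vesicles, and that of 10 early nephron genes was 216 to 291 and 2131 to 3171. In pooled and single S-shaped bodies the early nephron genes summed to 1197 to 1393 and 1201 to 1931, and 6 podocyte genes to 6104 to 6739 and 5468 to 7166. The podocyte genes summed to 1341 to 4638 in renal vesicles and 94.4 to 124 in collecting duct. Not every early nephron gene followed the label: in pooled S-shaped bodies Wnt4 and Dll1 were above background on no array, and Pax8 (5.58) did not pass against collecting duct (5.37, limma adjusted p = 0.597). Wnt4 was above background on no single S-shaped body array either, and on all 3 of collecting duct. Of the 15 ureteric bud and collecting duct genes, 6 were above background on no collecting duct array (Ret, Wnt11, Calb1, Wnt7b, Tfap2b and Aqp2). Among 13 tested, 9 were lower in renal vesicles than in collecting duct and 1 was higher (Wnt11, at least 1.76-fold, limma adjusted p = 0.0169). The remaining 3, with Cdh1 among them, did not pass. Krt19 (11.31), Krt7 (11.11) and Krt8 (11.07) had the highest mean levels of this list in collecting duct. Markers of other cell types also differed. The 9 nephron progenitor genes summed to 3535 to 4965 in renal vesicles and 375 to 467 in collecting duct. In pooled and single S-shaped bodies they summed to 1356 to 1906 and 856 to 2059. Ncam1 (11.33) had the highest mean level of this list in renal vesicles. Among 8 tested, 5 were higher in renal vesicles than in collecting duct, beside 12.3% of all probe sets. Eya1, Meox1 and Itga8 did not pass, and Cited1 was above background on no renal vesicle array. The 9 endothelial genes summed to 1504 to 3176 in renal vesicles, 6902 to 8438 in pooled and 6540 to 8732 in single S-shaped bodies and 47.5 to 84.2 in collecting duct, where 7 of the 9 were above background on no array. The 11 stromal genes summed to 372 to 1841, 4286 to 5662, 5944 to 7694 and 37.6 to 69.0 in the same order, and in collecting duct 9 of the 11 were above background on no array. The 6 red blood cell genes summed to 118 to 814, 5246 to 6990, 1197 to 4712 and 134 to 191. Replicate 3 was the renal vesicle array with the highest sums of endothelial, stromal, podocyte and ureteric bud genes. For the beta-actin controls, whose signal near the 3′ end over that in mid-transcript is a sign of RNA length, this ratio was 3.22 to 3.92 on the pooled S-shaped body arrays and 6.29 to 10.5 on the other 9. The Gapdh controls ran the other way, with a ratio of 3′ to 5′ signal of 21.2 to 28.3 on the pooled arrays and means of 10.3 to 10.96 in the other 3 groups. Between the 3′ and 5′ ends of beta-actin the pooled arrays (mean 38.3) were near renal vesicles (39.6), and the single ones stood at 75.8 to 91.4. The part of these markers and ratios in the differences below was not tested. In such bulk samples, fewer cells of a type and less RNA per cell cannot be told apart.

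**Figure D1:**
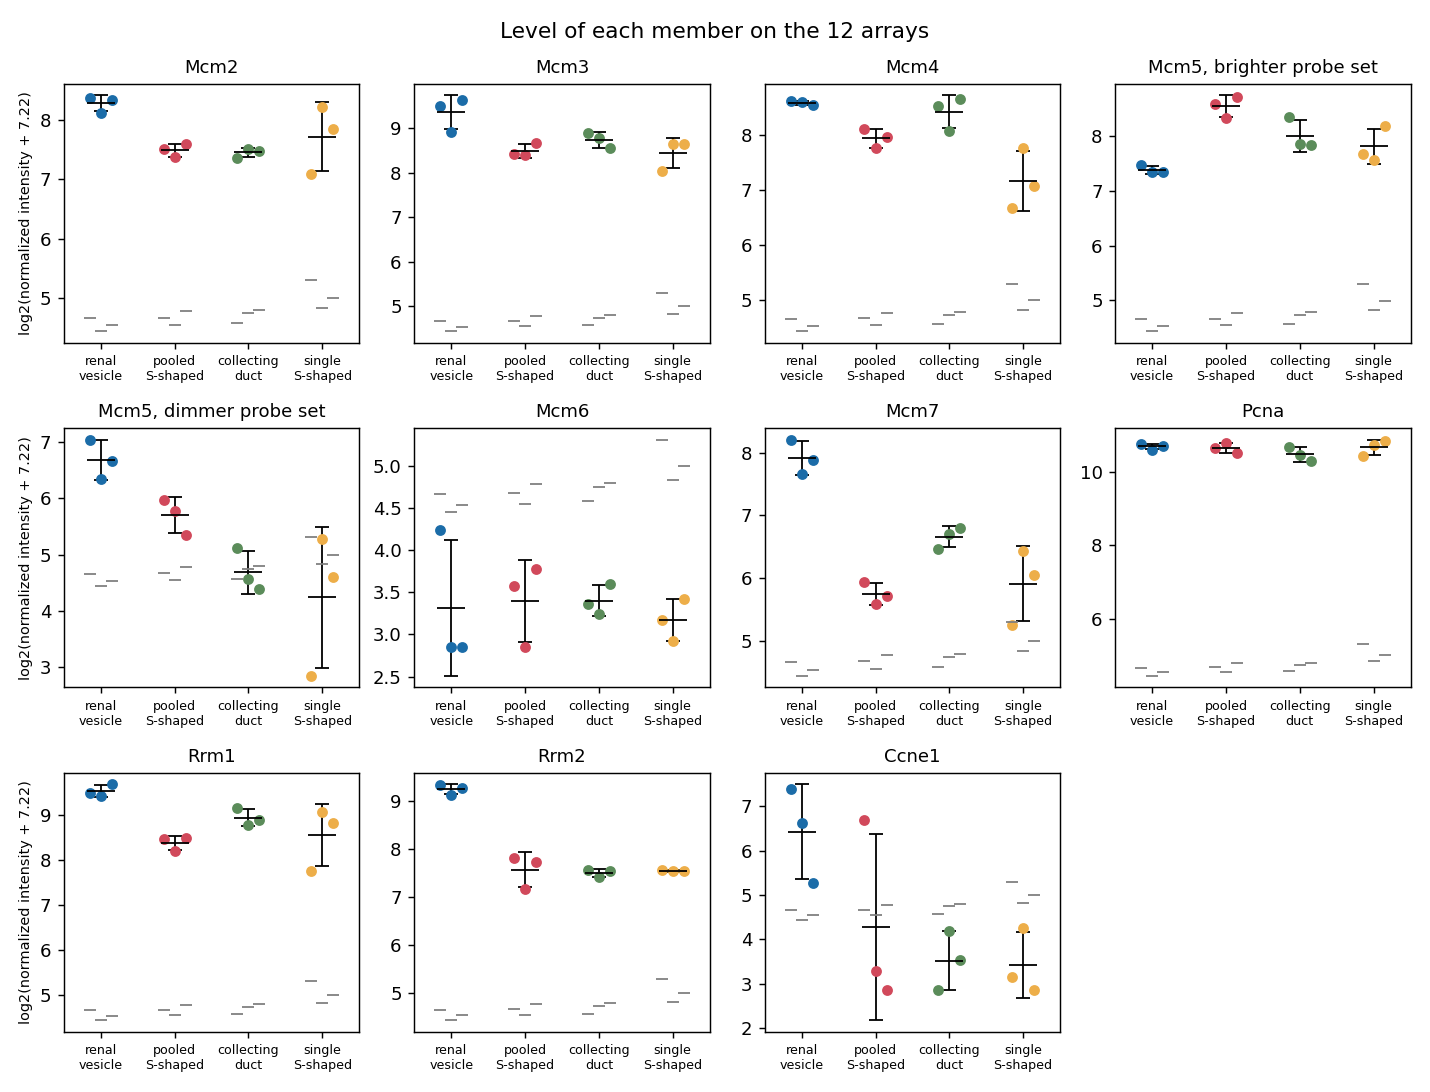
Level of 11 probe sets of the 10 genes on each array, as log2(normalized intensity + 7.22). Points are arrays, black bars are the mean and SD of 3 arrays, and grey dashes are each array's background; Mcm2, Mcm7, Rrm1 and Rrm2 sit highest in renal vesicles, Pcna is nearly level, and all 12 points of Mcm6 lie under their dashes.

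The helicase genes Mcm2, Mcm3 and Mcm7 were highest in renal vesicles. Mcm2 measured 8.37, 8.12 and 8.35 on the renal vesicle arrays, 7.51, 7.38 and 7.59 on those of pooled S-shaped bodies, 7.36, 7.52 and 7.48 on those of collecting duct and 7.09, 8.22 and 7.85 on those of single S-shaped bodies. All 3 renal vesicle arrays lay above every pooled S-shaped body and collecting duct array, while the single arrays spread across both ranges. The level was 1.77-fold higher in renal vesicles than in collecting duct (log2 difference 0.83 ± 0.15 SE, limma adjusted p = 0.00254) and 1.73-fold lower in pooled S-shaped bodies than in renal vesicles (log2 difference -0.79 ± 0.15, limma adjusted p = 0.00204). Pooled S-shaped bodies and collecting duct differed by 0.04 (95% interval -0.29 to 0.37), which did not pass the test, and single S-shaped bodies did not pass against renal vesicles either (log2 difference -0.56, limma adjusted p = 0.2).

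Mcm7, another subunit of the helicase ring, had the largest fitted fall from renal vesicle to pooled S-shaped body among the 10 members. It measured 8.20, 7.66 and 7.88 on the renal vesicle arrays, 5.94, 5.59 and 5.70 for pooled S-shaped bodies, 6.47, 6.70 and 6.80 for collecting duct and 5.26, 6.43 and 6.04 for single S-shaped bodies. Renal vesicles, collecting duct and pooled S-shaped bodies formed 3 ranges that did not overlap, in that order. The fall from renal vesicle to pooled S-shaped body was 4.49-fold (log2 difference -2.17 ± 0.21, limma adjusted p = 2.94e-05), and the level in collecting duct lay between, 2.39-fold under renal vesicles (adjusted p = 0.00135) and 1.88-fold over pooled S-shaped bodies (adjusted p = 0.00498, both limma).

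Mcm3 was read by a pair of probe sets that moved together (r = 0.93 over the 12 arrays, which share their normalization). The brighter one measured 9.50, 8.92 and 9.64 on the renal vesicle arrays, 8.41, 8.39 and 8.66 for pooled S-shaped bodies, 8.89, 8.77 and 8.54 for collecting duct and 8.04, 8.64 and 8.65 for single S-shaped bodies. The renal vesicle range lay above the other 3, although replicate 3 came close to the highest collecting duct array. Mcm3 fell by 0.87 ± 0.19 on the log2 scale in pooled S-shaped bodies against renal vesicles (limma adjusted p = 0.00459), and its excess over collecting duct was 0.62 ± 0.19 (limma adjusted p = 0.0372). The second probe set gave -0.86 and 0.49 for the same comparisons, with limma adjusted p-values of 0.00122 and 0.0382. The call against collecting duct was kept in 7 of 17 alternative settings; it was lost without any 1 of the 6 arrays compared except renal vesicle replicate 3, with limma adjusted p from 0.0555 to 0.131.

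Mcm4 was near the same level in renal vesicles and collecting duct and lower in both S-shaped groups. It measured 8.62, 8.61 and 8.55 on the renal vesicle arrays, 8.11, 7.76 and 7.96 for pooled S-shaped bodies, 8.53, 8.09 and 8.66 for collecting duct and 6.69, 7.77 and 7.08 for single S-shaped bodies. Collecting duct overlapped renal vesicles (difference 0.17, 95% interval -0.21 to 0.55), and both S-shaped groups lay below renal vesicles. Mcm4 fell by 0.65 ± 0.17 in pooled S-shaped bodies against renal vesicles (limma adjusted p = 0.0125) and by 0.48 ± 0.17 against collecting duct (limma adjusted p = 0.0472), the second in arrays that overlap and kept in 6 of 17 alternative settings. The first call was lost without pooled S-shaped body replicate 2 (limma adjusted p = 0.0515), and the second without any 1 of the 6 arrays compared except collecting duct replicate 2 (limma adjusted p = 0.0531 to 0.168). In single S-shaped bodies it was 2.37-fold lower than in collecting duct (log2 difference -1.25 ± 0.30, limma adjusted p = 0.0136), the only member called in that comparison, and the call was lost without collecting duct replicate 1 or 3 (limma adjusted p = 0.0612 and 0.0641).

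For Mcm5 the 2 probe sets disagreed, so its direction is uncertain. The brighter one stands for the gene in the counts over genes below. The brighter one measured 7.47, 7.34 and 7.33 on the renal vesicle arrays, 8.59, 8.32 and 8.71 for pooled S-shaped bodies, 8.34, 7.84 and 7.83 for collecting duct and 7.67, 7.57 and 8.18 for single S-shaped bodies. The dimmer one measured 7.04, 6.33 and 6.66, then 5.98, 5.77 and 5.36, then 5.11, 4.56 and 4.39, and 2.85, 5.27 and 4.60, where only 1 collecting duct and 1 single S-shaped body array was above background. Renal vesicles were the lowest group on the first and the highest on the second. Against collecting duct the first fell by 0.62 ± 0.18 (limma adjusted p = 0.029) while the second rose by 1.99 ± 0.29 (limma adjusted p = 0.000612). The call of the first was lost without renal vesicle replicate 3 or 4 or collecting duct replicate 1 (limma adjusted p = 0.0571, 0.073 and 0.11). Both probe sets were higher in pooled S-shaped bodies than in collecting duct (limma adjusted p = 0.0369 and 0.0173). For the brighter one the arrays overlapped, and this call was kept in 9 of 17 alternative settings. It was lost without pooled S-shaped body replicate 1 or 3 or collecting duct replicate 2 or 3 (limma adjusted p = 0.1 to 0.124). Over the 12 arrays the dimmer one correlated with Mcm2, Mcm3, Mcm4, Mcm7, Rrm1 and Rrm2 at r between 0.68 and 0.75. The brighter one correlated with these genes at r between -0.69 and -0.21. Both ranges are descriptions of arrays that fall into 4 groups.

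Mcm6, the remaining subunit, was below background on all 12 arrays, at levels between 2.85 and 4.24, and was left out of the tests by the filter on low signal. Its probe set gives no level for the gene in any group.

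**Figure D2:**
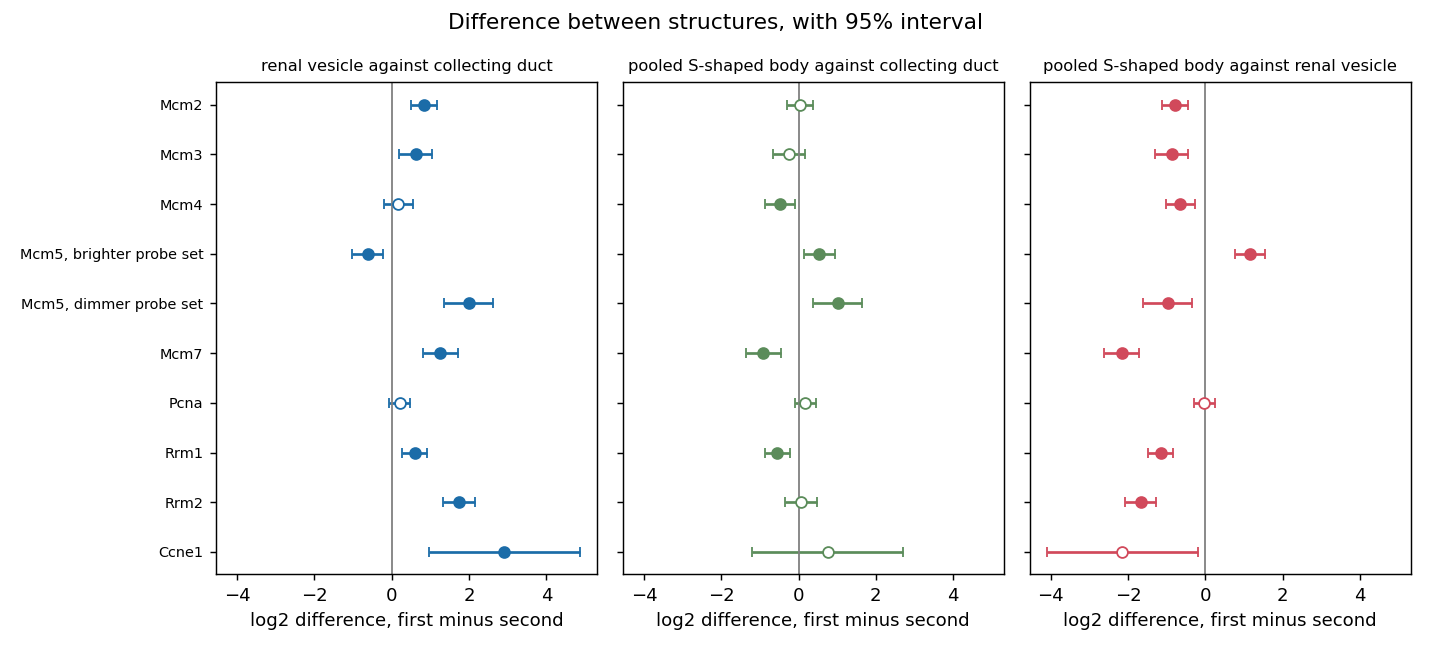
Log2 difference of each tested probe set in 3 comparisons, with the 95% interval of the limma fit; filled points passed the test and open points did not. Renal vesicle against collecting duct lies mostly to the right of 0 and pooled S-shaped body against renal vesicle mostly to the left, with the brighter Mcm5 probe set on the opposite side in both.

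Pcna, the clamp gene, was the most even member. It measured 10.76, 10.61 and 10.73 on the renal vesicle arrays, 10.66, 10.81 and 10.54 for pooled S-shaped bodies, 10.70, 10.48 and 10.30 for collecting duct and 10.45, 10.74 and 10.84 for single S-shaped bodies. All 4 ranges overlapped and no comparison passed the test. The 95% intervals of the differences were -0.06 to 0.48 for renal vesicle over collecting duct and -0.31 to 0.24 for pooled S-shaped body over renal vesicle, so a change of the size measured for Mcm7 or Rrm2 lay outside them.

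Both subunits of ribonucleotide reductase were highest in renal vesicles. Rrm2, the small subunit, whose synthesis is tied to S phase, measured 9.33, 9.13 and 9.28 on the renal vesicle arrays, 7.82, 7.16 and 7.73 for pooled S-shaped bodies, 7.56, 7.42 and 7.55 for collecting duct and 7.57, 7.55 and 7.53 for single S-shaped bodies. The 3 renal vesicle arrays stood far above every other array, and the other 3 groups overlapped. Rrm2 was 3.19-fold lower in pooled S-shaped bodies than in renal vesicles (log2 difference -1.67 ± 0.18, limma adjusted p = 6.94e-05) and 3.23-fold lower in single ones (log2 difference -1.69 ± 0.18, limma adjusted p = 0.00051). Pooled S-shaped bodies and collecting duct differed by 0.06 (95% interval -0.34 to 0.47).

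Rrm1, the large subunit, was graded like Mcm7. It measured 9.51, 9.44 and 9.69 on the renal vesicle arrays, 8.46, 8.21 and 8.49 for pooled S-shaped bodies, 9.15, 8.78 and 8.91 for collecting duct and 7.77, 9.09 and 8.84 for single S-shaped bodies. The first 3 groups did not overlap, and single S-shaped bodies spanned the range below renal vesicles. Rrm1 was 2.23-fold lower in pooled S-shaped bodies than in renal vesicles (log2 difference -1.16 ± 0.15, limma adjusted p = 0.000165), 1.47-fold lower than in collecting duct (adjusted p = 0.0115) and 1.52-fold higher in renal vesicles than in collecting duct (adjusted p = 0.0128, both limma). The call against collecting duct was lost without collecting duct replicate 2 for renal vesicles and replicate 1 for pooled S-shaped bodies (limma adjusted p = 0.0528 and 0.0517). A second Rrm1 probe set lay at the floor of the scale on most arrays and was not tested.

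Ccne1, the cyclin, was above background on all 3 renal vesicle arrays, on 1 pooled S-shaped body array and on no array of the other groups. It measured 7.38, 6.63 and 5.28 on the renal vesicle arrays, 6.69, 3.30 and 2.85 for pooled S-shaped bodies, 2.85, 4.19 and 3.52 for collecting duct and 3.14, 4.26 and 2.85 for single S-shaped bodies. Every renal vesicle array lay above every collecting duct and single S-shaped body array, and replicate 1 of the pooled S-shaped bodies reached the renal vesicle range. Against the background level of the dimmer group, Ccne1 was at least 3.31-fold higher in renal vesicles than in collecting duct (limma adjusted p = 0.035) and at least 2.61-fold higher than in single S-shaped bodies (limma adjusted p = 0.00727). The fall in pooled S-shaped bodies did not pass the test (limma adjusted p = 0.081), but passed without pooled S-shaped body replicate 1 (log2 difference -3.36, adjusted p = 0.00238). The call against collecting duct was kept in 8 of 16 alternative settings and was lost without any 1 of the 6 arrays compared except renal vesicle replicate 4 (limma adjusted p = 0.0562 to 0.118).

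Counted over genes, with 1 probe set each, 6 of 9 tested members were higher in renal vesicles than in collecting duct, 1 was lower (the brighter Mcm5 probe set) and 2 did not pass, with a median log2 difference of 0.62 against -0.02 over all 9316 probe sets tested. In that comparison 12.3% of probe sets were called higher and 11.6% lower. In pooled S-shaped bodies against renal vesicles 6 of 9 were lower, 1 higher (again the brighter Mcm5 probe set, while the dimmer was lower) and 2 not called. The median was -0.87 against -0.03, where 19.2% of probe sets were called lower and 17.5% higher. Against collecting duct, pooled S-shaped bodies had 3 members lower (Mcm4, Mcm7 and Rrm1), 1 higher (Mcm5, on both probe sets) and 5 not called, with a median of 0.04 and with 20.0% and 18.2% of probe sets called lower and higher, so the share of members is to be read beside these. These 3 comparisons share arrays and are not independent of each other. The call count for renal vesicle against collecting duct over probe sets fell from 9 to 5 without collecting duct replicate 2, and that for pooled S-shaped body against collecting duct fell from 5 to 2 without pooled S-shaped body replicate 1 or collecting duct replicate 3 and to 3 without any other array compared.

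The comparisons of single S-shaped bodies use the same renal vesicle and collecting duct arrays as those of pooled ones, and are not independent of them. Of 9 members 6 were lower than in renal vesicles (Mcm3, Mcm4, Mcm7, Rrm1, Rrm2 and Ccne1), none was higher and 3 were not called, with a median of -0.98 against -0.03; 14.6% of probe sets were called lower and 12.5% higher. Over probe sets the count fell from 8 to 4 without renal vesicle replicate 2 or 4, and the calls of Mcm3 and Rrm1 were lost in both cases (limma adjusted p = 0.106 to 0.144). Against collecting duct 1 of 8 was lower, with 17.9% of probe sets called lower and 16.0% higher, and this call was lost without collecting duct replicate 1 or 3. Between single and pooled S-shaped bodies 0 of 11 probe sets of members passed in limma, and 3 had an unadjusted p under 0.05; 0.247% of all probe sets were called higher and 0.150% lower. These 37 calls became 146 when arrays were scaled to the 75th percentile and 121 with the trimmed mean, with 0 members among them in either case. The median SD of the 10 members was 0.45 in single S-shaped bodies against 0.13 for renal vesicles, 0.18 for the pooled ones and 0.19 for collecting duct. Over all probe sets tested the median SD was 0.43, 0.31, 0.24 and 0.23 in that order, so the members' spread in single S-shaped bodies was near that of all probe sets. Replicate 3, with the lowest deposited signal, was the lowest single array for 6 of the 10 members.

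The wider machinery was described with 5 lists of other replication genes, of which 68 were measured. In pooled S-shaped bodies against renal vesicles 42 of 66 tested were lower and 2 higher, with a median log2 difference of -0.97, where 19.2% and 17.5% of all probe sets were. Against collecting duct 31 of 66 were lower and 2 higher (median -0.65; 20.0% and 18.2% of all probe sets), and in renal vesicles against collecting duct 12 were higher and 4 lower (median 0.46; 12.3% and 11.6% of all probe sets). Single S-shaped bodies had 33 of 65 lower and 1 higher than renal vesicles (14.6% and 12.5% of all probe sets), and 30 of 65 lower and 5 higher than collecting duct (17.9% and 16.0%). The counts of single lists below are to be read beside the same shares. Without renal vesicle replicate 3 the counts of genes lower and higher in the first 3 comparisons were 41 and 2, 34 and 2, and 2 and 16.

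Licensing genes load the helicase or act with it. Of 9 tested, 5 were lower in pooled S-shaped bodies than in renal vesicles and none was higher. Orc5, a subunit of the origin recognition complex, fell by 1.81 ± 0.20 on the log2 scale (limma adjusted p = 7.82e-05), and Mcm10, which helps to start the helicase, fell by 1.59 ± 0.38 (limma adjusted p = 0.0074). Mcm10 and Cdt1, the factor that loads the MCM ring, were higher in renal vesicles than in collecting duct, by 1.28 ± 0.38 and 0.74 ± 0.16 (limma adjusted p = 0.0327 and 0.00624). Cdc6, another loading factor, was 1.07 ± 0.18 lower in pooled S-shaped bodies than in collecting duct (limma adjusted p = 0.00076).

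At the fork, 18 of 24 tested genes were lower in pooled S-shaped bodies than in renal vesicles and 1 was higher. Lig1, the ligase that joins Okazaki fragments, and Rpa2, a subunit of the single-strand binding complex, were above background on all 3 renal vesicle arrays and on no pooled S-shaped body array, at least 5.17-fold and at least 4.13-fold higher in renal vesicles (limma adjusted p = 0.000278 and 0.000658). The exception was Rpa3, the small subunit of the same complex, which was 0.99 ± 0.20 higher in pooled S-shaped bodies (limma adjusted p = 0.00285). Top1, the topoisomerase that relieves twist ahead of the fork, was 0.89 ± 0.13 higher in renal vesicles than in collecting duct (limma adjusted p = 0.000726).

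Beside ribonucleotide reductase, 6 of 8 genes of nucleotide supply were lower in pooled S-shaped bodies than in renal vesicles and none was higher. Cad, which starts pyrimidine synthesis, fell by 3.02 ± 0.42 (limma adjusted p = 0.000269), with 1 pooled array above background, and Shmt1, a folate enzyme, by 1.71 ± 0.25 (limma adjusted p = 0.000355). Ctps, which makes CTP, was 1.12 ± 0.16 higher in renal vesicles than in collecting duct (limma adjusted p = 0.000561).

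Among 16 genes of S-phase control 7 were lower and 1 was higher in pooled S-shaped bodies than in renal vesicles. The one that was higher was Cdkn1c, an inhibitor of cyclin-dependent kinases, at 12.87 ± 0.21 against 10.61 ± 1.35 (SD, n = 3 each; limma adjusted p = 0.00413). E2f8, a repressor of the E2F family, fell by 1.52 ± 0.16 (limma adjusted p = 5.03e-05), and Cdc25a, the phosphatase that activates the kinases, by 1.13 ± 0.24 (limma adjusted p = 0.0037). Ccna2, the S-phase cyclin, was 0.90 ± 0.12 higher in renal vesicles than in collecting duct (limma adjusted p = 0.000364), and Cdkn1b, another inhibitor, was 1.06 ± 0.30 lower there (limma adjusted p = 0.0247).

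Of 9 chromatin genes that work behind the fork 6 were lower in pooled S-shaped bodies than in renal vesicles. Chaf1a, a subunit of the assembly factor that places new histones, fell by 2.32 ± 0.19 (limma adjusted p = 1.44e-05). Uhrf1, which guides maintenance methylation, was on no pooled array above background and at least 5.89-fold higher in renal vesicles (limma adjusted p = 3.74e-05). Dnmt1, the maintenance methyltransferase, was 2.31 ± 0.22 lower in pooled S-shaped bodies than in collecting duct (limma adjusted p = 1.75e-05).

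A list of mitosis genes was set beside these. Of 16 tested, 10 were higher in renal vesicles than in collecting duct and none was lower, with a median of 0.75, and 8 were lower in pooled S-shaped bodies than in renal vesicles (median -0.57). Set against collecting duct, 3 were higher and 2 lower in pooled S-shaped bodies, beside the 18.2% and 20.0% of all probe sets called higher and lower there. The spindle motor genes Kif11 and Kif20a were 1.49 ± 0.21 and 1.41 ± 0.12 higher in renal vesicles than in collecting duct (limma adjusted p = 0.000531 and 1.49e-05). Cdc20, an activator of the anaphase-promoting complex, was 1.12 ± 0.15 higher in pooled S-shaped bodies than in collecting duct (limma adjusted p = 0.000199), and Birc5, a subunit of the chromosomal passenger complex, was at least 2.45-fold lower there (limma adjusted p = 6.27e-05).

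**Figure D3:**
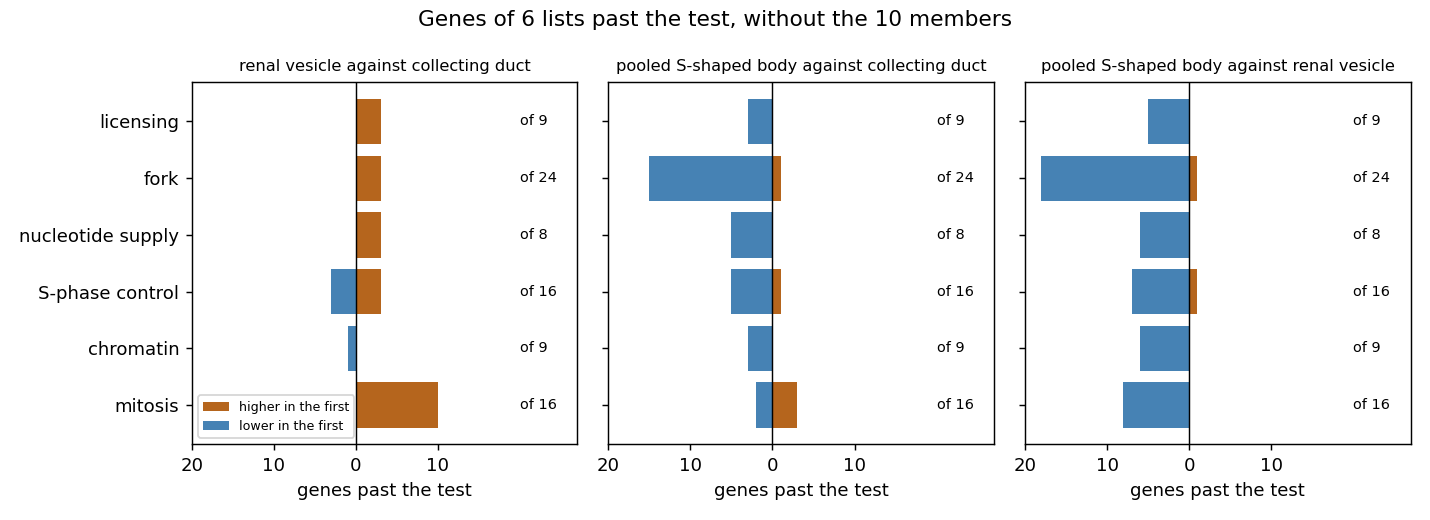
Number of genes of 6 lists past the test in 3 comparisons, higher to the right of 0 and lower to the left, with the number tested at the right edge. The fork list reaches 18 of 24 lower in pooled S-shaped bodies against renal vesicles, and the mitosis list 10 of 16 higher in renal vesicles against collecting duct.

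In summed normalized intensity, the 26 measured fork genes stood at 9105 to 11374 in renal vesicles, 6668 to 7250 in collecting duct, 5065 to 5469 in pooled and 4967 to 5514 in single S-shaped bodies. The 16 mitosis genes stood at 8950 to 10410, 5546 to 5780, 5800 to 6337 and 5779 to 6407 in the same order. Renal vesicles were the highest group on both lists with no overlap, and collecting duct lay above the S-shaped bodies in the fork sum. For mitosis genes its place depended on the measure: by sum it overlapped single S-shaped bodies and lay under pooled ones, while by mean log2 level it stood at 7.67 to 7.74, above pooled (7.38 to 7.62) and single ones (7.45 to 7.54). Renal vesicle replicate 3 was the lowest of the 3 renal vesicle arrays on both lists. It had the highest endothelial and stromal sums of its group, but by mean log2 level its endothelial genes stood at 6.44, as in replicate 2. A link between these levels was not tested.

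**Figure D4:**
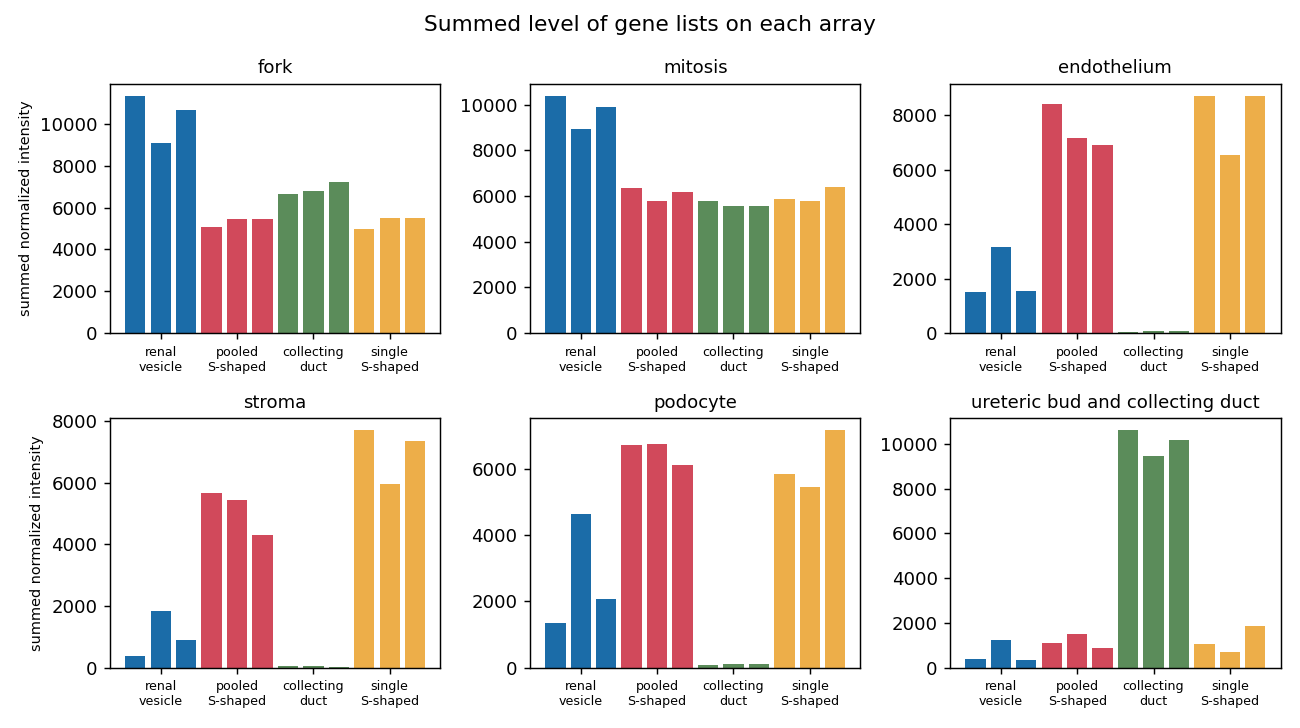
Summed normalized intensity of 6 gene lists, with 1 bar for each of the 12 arrays from a baseline of 0. The fork and mitosis lists are highest in renal vesicles, endothelial and stromal genes in the S-shaped bodies, and ureteric bud genes in collecting duct, at 9451 to 10610.

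Over all 45 pairs of the 10 members the median r across the 12 arrays was 0.36 (range -0.69 to 0.92), with 9 pairs negative. Without Mcm5, Mcm6, Pcna and Ccne1, the members Mcm2, Mcm3, Mcm4, Mcm7, Rrm1 and Rrm2 correlated at r between 0.42 and 0.92. Both ranges are descriptions. Of 6737 other genes, those most like the mean of the 10 standardised members were Ckap5 (r = 0.94), Ddx1 (0.94), Cdca7 (0.94), Tcof1 (0.93), Kif2a (0.93) and Ahcy (0.93). The median r over the 6737 genes was 0.04. The mean of the members gives equal weight to Mcm6, which was below background, and to the brighter Mcm5 probe set. Cdca7, a cell division cycle associated gene, had a mean level of 9.42 in renal vesicles, 7.94 in collecting duct, 7.37 in pooled and 7.22 in single S-shaped bodies, and it ranked 1 when Mcm5 and Mcm6 were left out of the mean, a choice made after seeing the data. Ahcy, the hydrolase of S-adenosylhomocysteine, ranked 3 and Tcof1, a nucleolar gene, 38 in that case. Ckap5 ranked 5, Ddx1 6 and Kif2a 20.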

How the data were processed

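Per the labels, RNA from dissected kidney structures was amplified in 2 rounds and hybridized to MG_U74Av2 arrays. The authors deposited linear intensity values, in part negative, in a single table; GCOS is named in the submitters' processing notes, with scaling and summary method not given in the sources used here. Since the medians of the arrays spanned 17.8-fold, the 12422 probe sets (66 controls left out) were quantile normalized. Negative values became 0, a pseudocount of 7.22 (25% of the median) was added, and levels were put on the log2 scale. A filter at the 25th percentile of mean level left 9316 probe sets.

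Groups were compared in limma 3.58.1 with R 4.3.3 (mean-variance trend, two-sided, Benjamini-Hochberg over all probe sets tested, threshold 0.05). One fit held the 9 arrays of pooled nephron structures and collecting duct; each comparison with single S-shaped bodies had its own fit of 6 arrays. Fold changes are on the log2(value + pseudocount) scale, which understates low genes. Where no array of the dimmer group was above background, a bound is given: the brighter group's mean against the higher of background and signal on each dim array. Such a bound ("at least") concerns group means and does not cover the spread of the arrays. The fit was tested on simulated data.

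The members and gene lists were chosen with earlier results of these data known. Every member is named, represented by its brightest probe set where 1 value is needed. From each wider list and comparison the rule takes, in each direction, up to 2 genes past the test with the largest change and no overlap of arrays, of which a part is printed. Alternatives were scaling to the 75th percentile or trimmed mean, 2 pseudocounts, 2 filters, no trend, array weights, other sets of arrays, the replicate number as a block, and each array left out. Counts for the wider lists without renal vesicle replicate 3 were added after seeing the data. Same-numbered arrays of 2 groups deviated together with r between -0.09 and 0.05, so the numbers were not taken to pair samples.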

Additional observations from a re-analysis of the deposited data

How the results depend on the processing

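The probe sets of members called, of 11 tested (10 in single S-shaped body against collecting duct), were 9 in renal vesicle against collecting duct, 5 in pooled S-shaped body against collecting duct, 9 in pooled S-shaped body against renal vesicle, 0 in single against pooled S-shaped body, 1 in single S-shaped body against collecting duct and 8 in single S-shaped body against renal vesicle. Without the trend, renal vesicle and pooled S-shaped body gave 5 and 3 against collecting duct, and single S-shaped body 5 against renal vesicle. With all 12 arrays in 1 fit, renal vesicle and pooled S-shaped body gave 5 and 1 against collecting duct. With no filter, single S-shaped body gave 0 calls against collecting duct and 4 against renal vesicle. With the replicate block, which paired arrays that share only a number, renal vesicle against collecting duct gave 5, pooled S-shaped body 3 against collecting duct and 10 against renal vesicle, and single S-shaped body 2 against renal vesicle. Leaving out 1 array at a time gave 5 to 7, 2 to 3, 8 to 10, 0, 0 to 1 and 4 to 8, in the order above. The cause of these changes was not tested, beyond fewer arrays or more probe sets in a fit. No member called in a comparison changed direction in any setting tried. Rrm2, Mcm2 and Mcm7 kept their calls for renal vesicle against collecting duct in all 17 alternatives. Other scalings moved the median over all probe sets by less than 0.1. With the 75th percentile the median of the members went from 0.62 to 0.84 in renal vesicle against collecting duct. There the share of all calls that were higher went from 51.4% to 59.2%. In pooled S-shaped body against renal vesicle the members' median went from -0.87 to -1.10. With the trimmed mean these medians were 0.69 and -0.95. For single against pooled S-shaped bodies the calls over all probe sets went from 37 (62.2% higher) to 146 (78.1%) when scaled to the 75th percentile and 121 (71.9%) with the trimmed mean.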
